A study of Mus musculus with 27 samples.

Results

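The genes described here encode potassium channel subunits and were taken as all symbols beginning with Kcn in a count table of mouse dorsal root ganglia. Of 55367 gene symbols in that table, 99 began with Kcn, and 5 of these were named as antisense or opposite-strand transcripts (Kcnd3os, Kcnq1ot1, Kcnmb4os1, Kcnmb4os2 and Kcnab3os) and left out. Of the other 94, 75 reached a mean of 1 CPM (counts relative to the total of the library) over the 15 ganglion libraries and are the members, and 19 did not. The members just inside that limit were Kcnd2 at 1.14 and Kcng1 at 1.15 CPM, and the symbols just outside it were Kcna5 at 0.96 and Kcnj14 at 0.80 CPM. The mean level of the 75 members had a median of 9.27 CPM and ran up to 258.5 CPM (Kcnab2), with 5 members over 100 CPM and 24 under 5 CPM.

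Potassium channels let potassium flow along its gradient, which repolarises a neuron after an action potential and holds it near its resting potential. Voltage-gated (Kv) alpha subunits form pores that open on depolarisation, silent Kv subunits form no channel alone but join Kv2 subunits, and auxiliary subunits such as KChIP, Kv beta, KCNE and BK beta proteins alter gating or surface level. Calcium- and sodium-activated channels, inward rectifiers (Kir) and K2P leak channels make up the rest of the family. In sensory ganglia the Kv and leak currents set the threshold and firing pattern of sensory neurons, and nerve injury is known for lowering several of them, while the inward rectifier Kcnj10 is best known from the satellite glia that wrap the neurons.

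The study examined mouse L4-L5 dorsal root ganglia, where the somata of sensory neurons with axons in the sciatic nerve lie, and retinal ganglion cells. Each of 9 groups had 3 libraries. The ganglion groups were injured ganglia labelled Ptpn2 KO, sham ganglia labelled Ptpn2 KO, injured wild-type ganglia whose sciatic nerve received RU521 (an inhibitor of the DNA sensor cGAS), injured wild-type ganglia and sham wild-type ganglia, taken 3 days after injury. Ptpn2 encodes a tyrosine phosphatase that damps interferon and JAK-STAT signalling. Uninjured controls carry the word intact in their titles but a sham operation as their treatment, and are called sham here. The retinal groups were cells labelled Ptpn2 KO with interferon gamma (IFNγ), cells labelled Ptpn2 KO with PBS, wild-type cells with IFNγ and wild-type cells with PBS. All 4 retinal groups had optic nerve injury, and the cells were collected 3 days later. For the retina, adeno-associated virus carrying Cre or GFP was injected into eyes of mice with floxed Ptpn2 alleles 2 weeks before injury, so the wild-type cells also come from floxed mice. The Cre driver of the ganglion knockout, the exons deleted, and whether the 3 libraries of a group come from separate animals were not stated in the sources used here, so p-values measure the spread between these libraries only.

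Ptpn2 was not lower in the injured ganglion libraries labelled knockout, and in sham ganglia its groups overlapped. It had 24.1, 26.4 and 18.5 CPM, scaled by the trimmed mean of M-values (TMM), in injured libraries labelled Ptpn2 KO, against 15.8, 19.7 and 17.4 CPM in injured wild-type libraries. In sham libraries it had 15.8, 12.1 and 10.5 CPM with the knockout label, against 11.6, 19.3 and 12.9 CPM in wild type. These counts run over all exons of Ptpn2 and the whole ganglion, so they check neither the deletion of single exons nor its cell type. In retinal cells with PBS Ptpn2 had 10.11, 8.034 and 7.68 CPM with the knockout label, against 10.49, 7.235 and 3.381 CPM in wild type. In those with IFNγ it had 15.41, 0 and 23.76 CPM with the label, against 0, 9.849 and 14.02 CPM in wild type. The retinal groups thus overlapped with either treatment. Every knockout direction given here, in ganglia and retina, is that of the label.

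Ganglion libraries held 14813365 to 22414750 counts, so that 3 counts correspond to 0.134 to 0.203 CPM, and retinal libraries held 13239988 to 17122057. The wild-type sham library of replicate 2 stood apart from the other wild-type sham libraries. The summed level of 15 pan-neuronal genes was 6629 CPM in it, against 10500 and 10590 CPM in the other sham libraries. Its mitochondrial share was 15.2% and 34115 genes had counts in it, against 4.87% and 6.52% and against 26235 and 26802 genes in the other wild-type sham libraries. Those sham libraries, of replicates 1 and 3, were the lowest of the 15 on both measures, and the injured wild-type libraries ran from 13.2% to 15.7% and from 33275 to 34340 genes. The summed level of 10 skeletal muscle markers in sham replicate 2 was 5153 CPM, the highest of the 15 ganglion libraries. Among RU521 libraries, replicate 2 had the lowest pan-neuronal sum, 6281 CPM against 9892 and 8305 CPM, and the highest macrophage sum. In wild type, both measures and the pan-neuronal sum thus set sham replicates 1 and 3 apart from the injured libraries, while sham replicate 2 lay in or near the injured range. With the knockout label the mitochondrial share ran from 12.8% to 18.6% in sham and from 11.5% to 17.1% in injured libraries. Genes detected overlapped there too, from 29580 to 31290 in sham and from 30253 to 32856 in injured libraries. Values without wild-type sham replicate 2 or RU521 replicate 2 are given beside the wild-type injury and RU521 results. Values with the genes detected per library in the model are given there too.

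Per kilobase of exon, the scale on which genes can be compared, the highest of the 75 members in sham wild-type ganglia was Kcnk1, a K2P leak channel subunit, at 60.4 ± 20.5 CPM per kilobase (SD, n = 3). Kcnab2, the Kv beta subunit that binds Kv1 channels, followed at 55.8 ± 13.2, then Kcnip4 at 47.5 ± 17 and Kcnip2 at 35.1 ± 12.4 CPM per kilobase, both KChIP subunits of Kv4 channels. Neighbours in this order overlapped within their SDs, so the order of these leaders is not resolved. Kcnd1, a Kv4 pore subunit that carries fast A-type current, stood at 30.5 ± 9.69 and Kcna1, a Kv1 subunit of the juxtaparanodes of myelinated axons, at 24.8 ± 6.77 CPM per kilobase. Kcns3, a silent subunit, was at 21 ± 5.72, and Kcnmb1, a BK beta subunit best known from smooth muscle, at 16.2 ± 8.27 CPM per kilobase. In the remaining subfamilies the leading member lay lower, from Kcnj10 at 12.2 ± 0.689 and Kcnn4, the intermediate-conductance calcium-activated channel, at 7.97 ± 1.18 down to the BK pore gene Kcnma1 at 1.49 ± 0.169 CPM per kilobase. Between these stood Kcnb2 for Kv2 at 6.69 ± 1.58, Kcnh2 for the ERG group at 6.4 ± 0.316, Kcnc4 for Kv3 at 6.1 ± 0.584, Kcnt1 for sodium-activated channels at 5.99 ± 1.13, Kcnu1, the Slo3 channel best known from sperm, at 1.58 ± 0.212 and Kcne4 for KCNE at 1.51 ± 0.799 CPM per kilobase.

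The promoter windows of the members the injury results turn on are printed here, each 250 bases before to 50 bases after an annotated start, from RefSeq on GRCm38.p6, the build of the ganglion counts, written along the gene's own strand. Kcnc1, Kcns1 and Kcna2 are shown because they are the Kv subunits followed through every comparison, and Kcnk16 as the member with the largest increase after injury. All 4 KChIP genes were lower after injury in wild type, and of these Kcnip1, Kcnip3 and Kcnip4 are shown with the window that holds a motif match. Capitals mark matches to an AP-1 motif (TGANTCA) or a STAT-type motif (TTCNNNGAA), searched on both strands with overlaps counted.
Kcnc1 (chr7:46396218-46396517, plus strand): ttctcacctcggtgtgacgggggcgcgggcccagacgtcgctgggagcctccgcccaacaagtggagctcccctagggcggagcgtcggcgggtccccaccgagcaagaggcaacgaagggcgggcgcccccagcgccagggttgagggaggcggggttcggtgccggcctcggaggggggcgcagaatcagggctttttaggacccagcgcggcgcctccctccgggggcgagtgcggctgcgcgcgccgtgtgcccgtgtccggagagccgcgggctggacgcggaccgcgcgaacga
Kcns1 (chr2:164171064-164171363, minus strand): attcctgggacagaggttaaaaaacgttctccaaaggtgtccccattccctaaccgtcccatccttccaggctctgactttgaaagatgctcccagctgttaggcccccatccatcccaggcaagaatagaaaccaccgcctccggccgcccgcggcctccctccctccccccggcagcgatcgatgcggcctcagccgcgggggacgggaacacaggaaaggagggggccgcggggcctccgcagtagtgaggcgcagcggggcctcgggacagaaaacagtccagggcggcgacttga
Kcna2 (chr3:107101317-107101616, plus strand): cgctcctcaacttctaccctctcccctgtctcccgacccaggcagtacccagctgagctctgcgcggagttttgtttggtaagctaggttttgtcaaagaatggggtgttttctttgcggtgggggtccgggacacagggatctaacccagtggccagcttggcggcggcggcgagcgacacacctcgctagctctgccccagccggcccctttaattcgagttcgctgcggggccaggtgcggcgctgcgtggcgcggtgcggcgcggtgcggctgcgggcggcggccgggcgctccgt
Kcnk16 (chr14:20269220-20269519, minus strand): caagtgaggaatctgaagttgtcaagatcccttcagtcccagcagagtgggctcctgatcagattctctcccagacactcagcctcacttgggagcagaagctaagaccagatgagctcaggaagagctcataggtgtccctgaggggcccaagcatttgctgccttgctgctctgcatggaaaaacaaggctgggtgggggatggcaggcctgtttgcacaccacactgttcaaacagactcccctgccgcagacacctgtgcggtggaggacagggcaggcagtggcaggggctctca
Kcnip1 (chr11:33680633-33680932, minus strand): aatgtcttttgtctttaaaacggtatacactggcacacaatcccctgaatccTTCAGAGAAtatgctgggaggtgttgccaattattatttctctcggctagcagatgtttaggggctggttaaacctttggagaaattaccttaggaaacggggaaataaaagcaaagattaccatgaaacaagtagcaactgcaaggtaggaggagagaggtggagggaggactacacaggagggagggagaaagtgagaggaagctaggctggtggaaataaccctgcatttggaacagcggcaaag
Kcnip3 (chr2:127522045-127522344, minus strand): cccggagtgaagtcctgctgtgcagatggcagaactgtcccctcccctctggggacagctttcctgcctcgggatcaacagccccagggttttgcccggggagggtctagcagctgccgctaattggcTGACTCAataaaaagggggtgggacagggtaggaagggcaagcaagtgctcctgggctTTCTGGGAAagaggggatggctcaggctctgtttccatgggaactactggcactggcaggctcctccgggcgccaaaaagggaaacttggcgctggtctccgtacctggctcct
Kcnip4 (chr5:49285610-49285909, minus strand): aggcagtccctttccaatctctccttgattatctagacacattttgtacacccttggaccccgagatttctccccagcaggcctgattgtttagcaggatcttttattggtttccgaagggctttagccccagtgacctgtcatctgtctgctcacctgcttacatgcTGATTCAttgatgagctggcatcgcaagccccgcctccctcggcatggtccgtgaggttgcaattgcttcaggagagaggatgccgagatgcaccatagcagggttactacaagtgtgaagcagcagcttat

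Of the 75 members, 54 matched the RefSeq promoter table, with 77 windows against 32851 windows of all genes. The AP-1 motif was in 5.19% of member windows, against 7.81% of all windows, and the STAT-type motif in 9.09%, against 8.3%. The cyclic-AMP response element TGACGTCA was in 0% of member windows, against 1.79% of all windows, and TTCAGCACC, the left part of the REST element, in 1.3% (a Kcnh6 window), against 0.371%. In the Kcnip3 window shown, the AP-1 match starts 122 bases and the STAT-type match 64 bases before the start site. The Kcnip4 match starts 82 bases and the Kcnip1 match 198 bases before the start. The windows of Kcnc1, Kcns1, Kcna2 and Kcnk16 held none of these motifs, which says only that the letters are not in these windows. RefSeq starts need not be those of the Ensembl genes counted. The Kcnk16 window lies wholly outside the counted gene, and the Kcna2 window wholly inside it. The median GC content was 58.0% in member windows, against 52.7% over all windows.

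Injury in wild-type ganglia lowered 28 of the 75 members and raised 1, Kcnk16, at an adjusted p under 0.05 (edgeR's quasi-likelihood test with Benjamini-Hochberg adjustment over 18517 genes). Over all genes tested, 7.98% were called lower and 8.6% higher. The log2 fold change was negative for 59 members and positive for 16, and its median was -0.77 over the members, against 0.00 over all genes tested. In 32 members every injured library lay below every sham library and in 2 every injured library lay above, and over all genes such separation held for 15.8% and 17.5%. Of the 24 Kv alpha genes 12 were lower, of the 8 silent Kv genes 4, and of the 13 auxiliary genes 7, and the median log2 fold change was -0.94 for Kv alpha, -1.11 for silent Kv and -0.79 for auxiliary genes. Of the 10 Kir genes 2 were lower and the median was 0.11, and of the 12 K2P genes 3 were lower and 1 higher with a median of -0.22. None of the 8 genes grouped as calcium- or sodium-activated, with Slo3 (Kcnu1) counted among them, was called (edgeR, median -0.61). The lower count fell to 10 without the injured library of replicate 2, a fit whose share over all genes is not given here. This count was 41 without the sham library of replicate 2, again without such a share. It was 7, against 1.7% of all genes, with the genes detected per library as a term in the model. A fit with the sham libraries of replicates 1 and 3 left out rests on a lone sham library, and no member count is given for it. In it the falls of Kcnc1 (log2 -1.91), Kcna2 (-0.78) and Kcns1 (-0.38) were smaller than in the main fit. Of 15 pan-neuronal genes 7 were lower in the same comparison, and with libraries scaled to these genes 9 members were lower and 3 higher, against 0.896% and 22.5% of all genes. In whole-ganglion RNA, fewer cells of a type and less RNA per cell cannot be told apart.

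**Figure D1:**
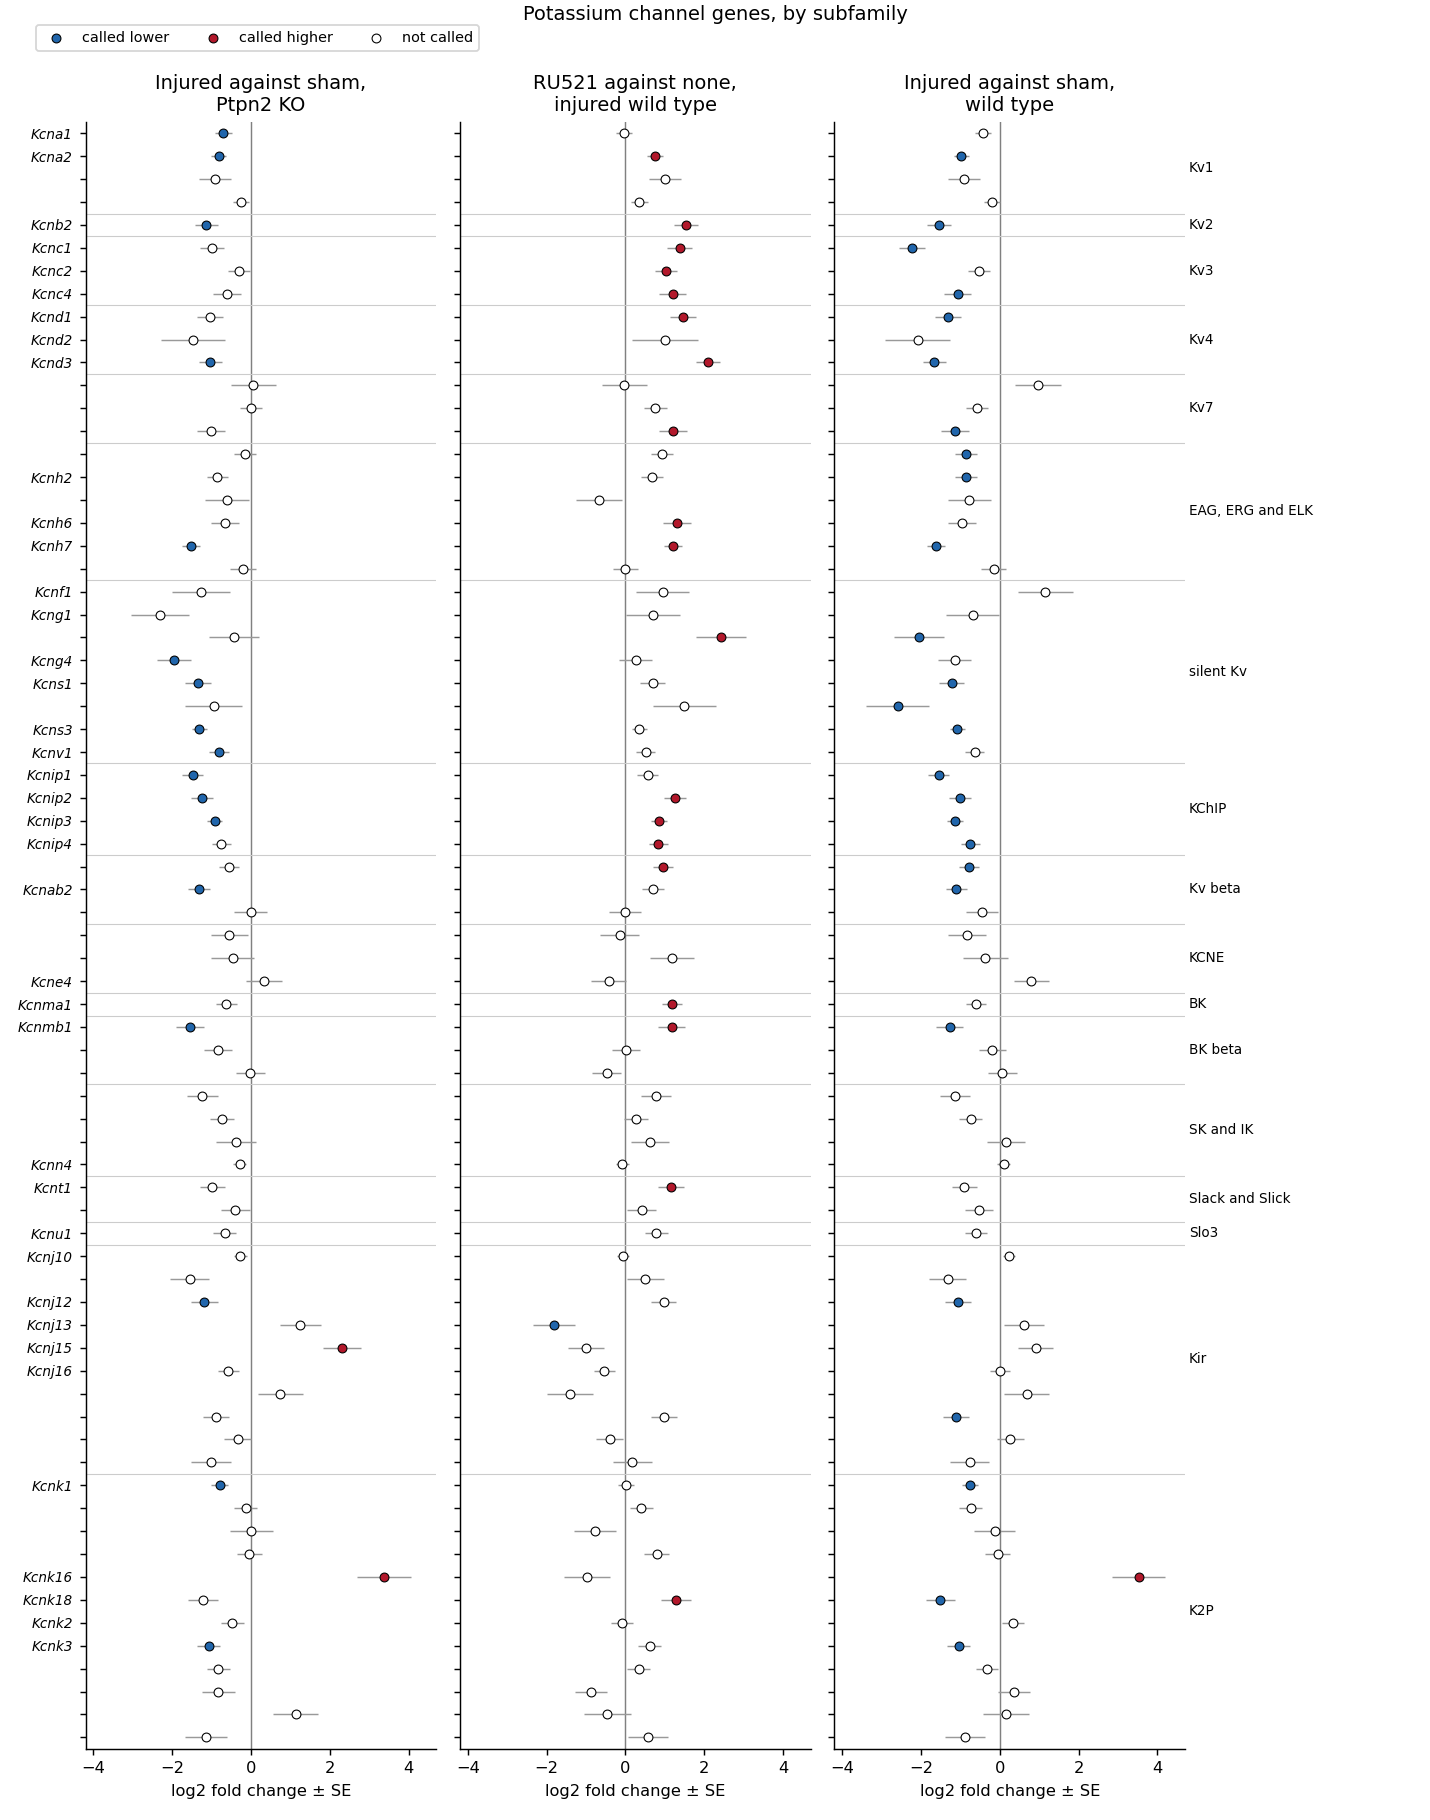
log2 fold change with its SE (horizontal axis) for 71 of the 75 potassium channel genes (rows, grouped by subfamily and labelled where the text names them) in injured against sham ganglia labelled Ptpn2 KO, RU521-treated against untreated injured wild-type ganglia, and injured against sham wild-type ganglia, with 3 libraries per group. Blue points were called lower, red points higher and white points neither; over all 75, after injury 19 members were lower with the knockout label and 28 in wild type, and with RU521 20 were higher.

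Kcnc1 encodes a Kv3 subunit whose fast delayed-rectifier current allows rapid firing, and lies at chr7:46396497-46438704, on the plus strand. It had 3.41, 5.0 and 4.82 CPM in injured wild-type libraries, against 22.6, 17.1 and 22.2 CPM in sham wild-type libraries, a log2 fold change of -2.23 ± 0.33 (SE; edgeR, adjusted p = 0.00107). The 3 injured values lay far below the 3 sham values, and this was the largest fall among the 12 members with the smallest p. Kcna2, a Kv1 subunit of juxtaparanodes at chr3:107101146-107115005, on the plus strand, had 78.6, 81.2 and 87 CPM in injured libraries, against 162, 146 and 178 CPM in sham libraries (log2 -0.98 ± 0.20, edgeR adjusted p = 0.00537). Its injured libraries agreed closely with each other, and no injured value reached the sham range. Kcns1, a silent subunit at chr2:164163619-164171113, on the minus strand, had 8.65, 6.6 and 8.43 CPM in injured libraries, against 26.4, 10.6 and 18.3 CPM in sham libraries (log2 -1.23 ± 0.32, edgeR adjusted p = 0.0175). The groups did not overlap, but the sham library of replicate 2 came close to the injured values.

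The largest falls by significance included Kcnh7, an ERG channel subunit at chr2:62693414-63184287, on the minus strand, whose exons share 4.6% of their length with Gca. It had 30.9, 23.6 and 28.1 CPM in injured libraries, against 99.7, 56 and 98.6 CPM in sham libraries (log2 -1.62 ± 0.23, edgeR adjusted p = 0.000912). The Kv4 subunit Kcnd3, at chr3:105452330-105674002, on the plus strand, had 15, 11.2 and 11.8 CPM in injured libraries, against 44.7, 28.4 and 46.7 CPM in sham libraries (log2 -1.66 ± 0.30, edgeR adjusted p = 0.00314). In both genes the sham libraries of replicates 1 and 3 were alike and the one of replicate 2 lay between them and the injured libraries. Kcnb2, a Kv2 subunit of the somatic delayed rectifier, had 47.1, 24.2 and 33.1 CPM in injured libraries, against 107, 75.2 and 122 CPM in sham libraries (log2 -1.54 ± 0.30, edgeR adjusted p = 0.00482). The groups did not overlap.

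**Figure D2:**
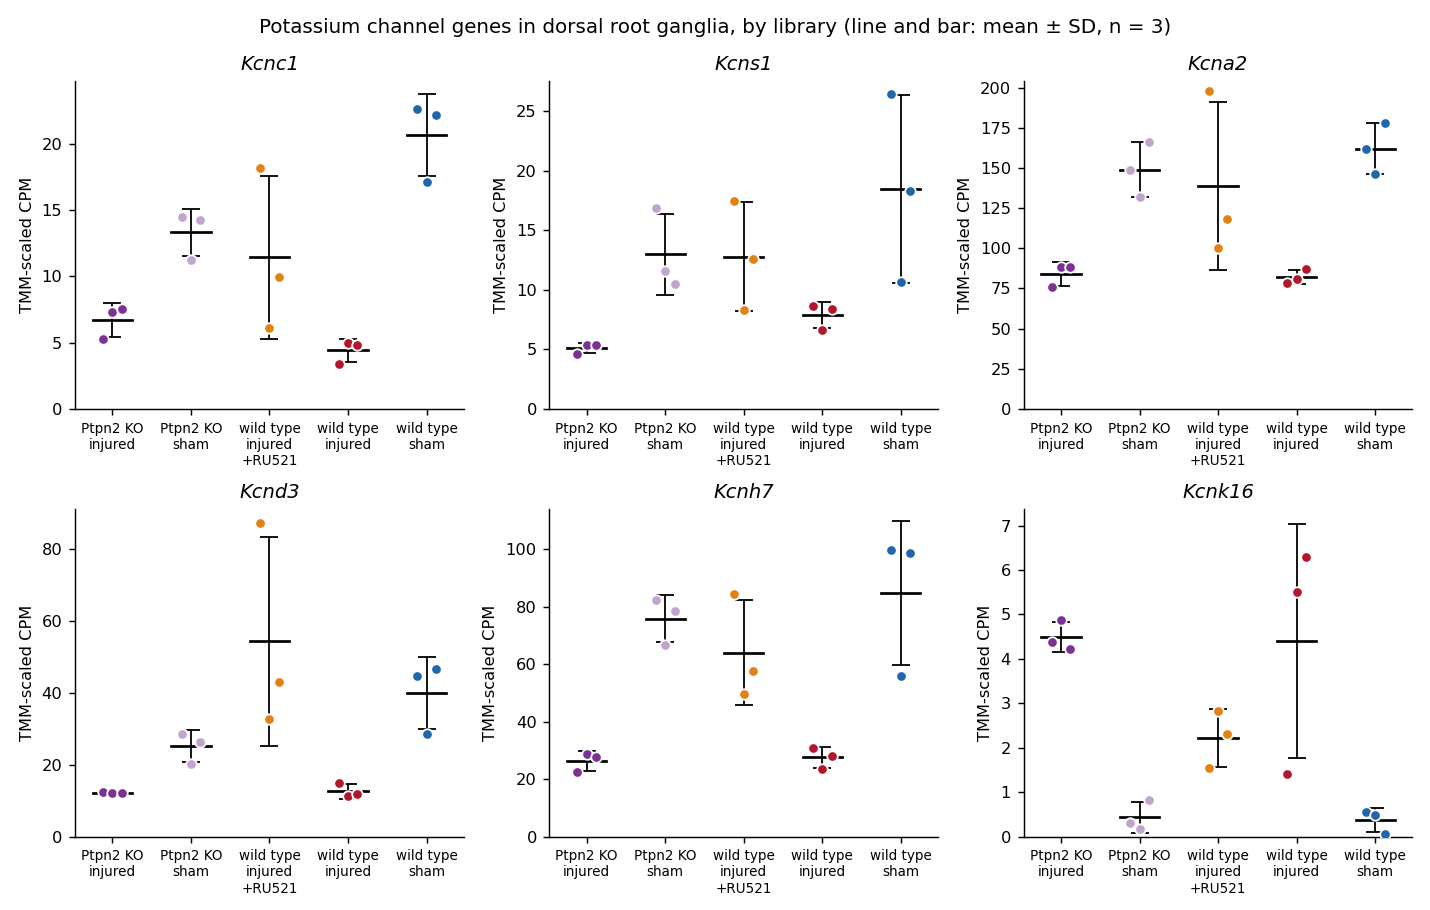
TMM-scaled CPM of Kcnc1, Kcns1, Kcna2, Kcnd3, Kcnh7 and Kcnk16 (1 panel each) in the 15 ganglion libraries, with injured and sham groups labelled Ptpn2 KO, injured wild type with RU521, injured wild type and sham wild type from left to right. Points are libraries, and the line and bar are the mean ± SD (n = 3); Kcnk16 alone is higher in the injured wild-type libraries than in the sham wild-type libraries.

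All 4 KChIP genes, calcium-binding subunits that raise Kv4 current at the surface, were lower after injury in wild type. Kcnip1 had 18.2, 18.4 and 17.8 CPM in injured libraries, against 73.3, 27.1 and 59.4 CPM in sham libraries (log2 -1.56 ± 0.27, edgeR adjusted p = 0.00237). Kcnip3, also known as the transcriptional repressor DREAM, had 34, 29.4 and 33.9 CPM in injured libraries, against 69.8, 63.6 and 81.7 CPM in sham libraries (log2 -1.15 ± 0.20, edgeR adjusted p = 0.00274). Injured libraries were tightly grouped for both genes, while sham libraries of Kcnip1 were spread widely. Kcnip2 had 80.8, 51.6 and 59 CPM in injured libraries, against 163, 77.1 and 148 CPM in sham libraries (log2 -1.02 ± 0.27, edgeR adjusted p = 0.0203). Its groups overlapped through the sham library of replicate 2, and the call was lost in 8 of 15 alternatives. Kcnip4 changed by -0.75 ± 0.24 (adjusted p = 0.0425). With sham replicates 1 and 3 left out, the log2 fold change was -0.23 for Kcnip2 (adjusted p = 0.711) and 0.0442 for Kcnip4 (adjusted p = 0.935). Among other partners, Kcnab2 fell to 180.5 ± 20.4 CPM in injured libraries, against 389 ± 92 CPM in sham libraries (SD, n = 3 each; log2 -1.11 ± 0.27, edgeR adjusted p = 0.0135). Kcns3 had 37.9, 28.8 and 27.5 CPM in injured libraries, against 85.8, 49.9 and 63.8 CPM in sham libraries (log2 -1.08 ± 0.18, edgeR adjusted p = 0.00237).

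Kcnk16, a K2P channel best known from pancreatic islets, lies at chr14:20261376-20269199, on the minus strand, and was the member that rose. It had 1.4, 5.5 and 6.3 CPM in injured wild-type libraries, against 0.565, 0.497 and 0.0533 CPM in sham wild-type libraries, from 23, 100 and 98 counts against 13, 8 and 1 counts (log2 3.53 ± 0.67, edgeR adjusted p = 0.00408). The groups did not overlap, although the injured library of replicate 1 was far below the other injured libraries. Another K2P gene, Kcnk18 (TRESK, a leak channel abundant in sensory neurons), had 3.04, 3.08 and 2.89 CPM in injured libraries, against 11.7, 5.22 and 8.8 CPM in sham libraries (log2 -1.51 ± 0.37, edgeR adjusted p = 0.0134). The injured libraries all lay lower, and the sham library of replicate 2 was the lowest of its group. Kcnk1, the highest member per kilobase, had 82.3, 72.3 and 84.2 CPM in injured libraries, against 169, 82.9 and 153 CPM in sham libraries (log2 -0.76 ± 0.21, edgeR adjusted p = 0.0226). Its groups overlapped, since the sham library of replicate 2 lay within the injured range. The call was lost in 8 of 15 alternatives, and with sham replicates 1 and 3 left out the log2 fold change was -0.01 (adjusted p = 0.978).

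Without the sham library of replicate 2, the falls of Kcnc1 (log2 -2.35), Kcnip1 (-1.88), Kcnd3 (-1.86), Kcnh7 (-1.86), Kcnk18 (-1.78), Kcnb2 (-1.73), Kcns1 (-1.52), Kcnab2 (-1.30), Kcnip2 (-1.29), Kcns3 (-1.26), Kcnip3 (-1.24), Kcna2 (-1.06), Kcnk1 (-1.03) and Kcnip4 (-1.02) were all called. With that library as the lone sham, assumed to vary like the other groups, the calls of Kcnc1 (log2 -1.91), Kcnh7 (-0.98), Kcnip3 (-0.93) and Kcnk16 (3.17) were kept. Those of Kcnd3 (-1.12, edgeR adjusted p = 0.0813), Kcnb2 (-1.06, adjusted p = 0.126), Kcna2 (-0.78, adjusted p = 0.0703), Kcnk18 (-0.75, adjusted p = 0.365), Kcns3 (-0.62, adjusted p = 0.066), Kcnab2 (-0.62, adjusted p = 0.344), Kcnip1 (-0.54, adjusted p = 0.152) and Kcns1 (-0.38, adjusted p = 0.579) were lost. With the genes detected per library in the model, the calls of Kcnc1 (log2 -1.70), Kcnd3 (-1.04), Kcnh7 (-1.0), Kcnip3 (-0.82), Kcns3 (-0.77), Kcnip1 (-0.74) and Kcnk16 (3.25) were kept. In that fit Kcna2 (-0.68, edgeR adjusted p = 0.0563) and Kcns1 (-0.38, adjusted p = 0.428) were not called.

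With the knockout label, injury lowered 19 members and raised 2, Kcnk16 and Kcnj15, at an adjusted p under 0.05 (edgeR with Benjamini-Hochberg adjustment). Over all genes tested, 4.57% were called lower and 6.34% higher. The log2 fold change was negative for 66 members and positive for 9, with a median of -0.80 over the members, against -0.01 over all genes. Every injured library lay below every sham library in 43 members and above in 5, against 18.5% and 19.7% of all genes. The lower count ranged from 8 without the sham library of replicate 1 to 24 without that of replicate 2, all among libraries labelled knockout. Shares over all genes are not given for these fits, so this range cannot be read as particular to the family. By class, 7 of 24 Kv alpha genes, 4 of 8 silent Kv genes, 5 of 13 auxiliary genes, 1 of 10 Kir genes and 2 of 12 K2P genes were lower. Again none of the 8 genes of the calcium- or sodium-activated group was called (edgeR, median log2 fold change -0.65).

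Kcns3 had 26, 21.4 and 26.1 CPM in injured libraries labelled Ptpn2 KO, against 62.4, 59.5 and 60.1 CPM in sham libraries with that label (log2 -1.31 ± 0.19, edgeR adjusted p = 0.000425), the smallest p of the family in this comparison. Kcnh7 had 22.4, 28.8 and 27.6 CPM in injured labelled libraries, against 82.2, 66.6 and 78.6 CPM in sham labelled libraries (log2 -1.53 ± 0.23, edgeR adjusted p = 0.000646). The injured values of both genes were close together and well under the sham values. Kcna2 had 75.7, 88.1 and 88.6 CPM in injured labelled libraries, against 149, 132 and 166 CPM in sham labelled libraries (log2 -0.82 ± 0.20, edgeR adjusted p = 0.0144). Kcns1 had 4.62, 5.34 and 5.41 CPM in injured labelled libraries, against 16.8, 11.6 and 10.5 CPM in sham labelled libraries (log2 -1.34 ± 0.33, edgeR adjusted p = 0.016). Neither gene had overlapping groups. Kcnc1 had 5.25, 7.34 and 7.52 CPM in injured labelled libraries, against 14.4, 11.3 and 14.2 CPM in sham labelled libraries, and missed the threshold (log2 -0.99 ± 0.32, edgeR adjusted p = 0.056).

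Other falls of this comparison were in Kcnip1 (log2 -1.48 ± 0.27), Kcnip2 (-1.24 ± 0.28) and Kcnip3 (-0.93 ± 0.20) of the KChIP group and in Kcnab2 (-1.32 ± 0.27). The silent subunit Kcng4 changed by -1.96 ± 0.44 and the BK beta gene Kcnmb1 by -1.55 ± 0.35 on the log2 scale. Kcnk16 had 4.37, 4.87 and 4.22 CPM in injured libraries labelled Ptpn2 KO, against 0.298, 0.179 and 0.83 CPM in sham libraries with that label (log2 3.37 ± 0.68, edgeR adjusted p = 0.00501). Kcnj15, an inward rectifier of which 5.3% of exon length is shared with another gene, had 3.12, 2.74 and 2.57 CPM in injured labelled libraries, against 0.358, 0.894 and 0.415 CPM in sham labelled libraries (log2 2.32 ± 0.48, edgeR adjusted p = 0.00643). Both genes are low, and in both every injured library exceeded every sham library.

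The injury comparisons with the knockout label and in wild type share no library. Of the lower calls, 16 genes were shared, which is 84.2% of the 19 with the knockout label and 57.1% of the 28 in wild type. Over all genes, the lower calls shared were 59.4% of those with the knockout label and 34.1% of those in wild type. Among them were Kcna2, Kcnab2, Kcnb2, Kcnd3, Kcnh7, Kcnip1, Kcnip2, Kcnip3, Kcnj12, Kcnk1, Kcnk3, Kcnmb1, Kcns1 and Kcns3. Kcna1, Kcng4 and Kcnv1 were called with the knockout label alone and 12 members in wild type alone, among them Kcnc1, Kcnd1, Kcnip4 and Kcnk18. In 23 members every injured library lay below every sham library in both comparisons, and Kcnk16 was above in both, against 7.62% and 8.67% of all genes. The log2 fold change was negative in both for 57 members, positive in both for 7 and of opposite sign for 11. Over all genes the shares were 35.2% negative in both, 34.8% positive in both and 30.0% of opposite sign.

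No member passed the test of the difference between the injury effects of the labelled knockout and of wild type (edgeR interaction, 0 higher and 0 lower), against 0.308% and 0.14% of all genes called higher and lower. At an unadjusted p under 0.05 there were 4 members, 5.33% against 9.79% of all genes. DESeq2 called 0 members, against 0.731% of all genes higher and 0.731% lower. By limma-voom 2 were higher and 1 lower, against 4.21% and 6.64% of all genes. The difference was 1.23 ± 0.45 on the log2 scale for Kcnc1 (edgeR, adjusted p = 0.345) and -2.42 ± 1.01 for Kcnf1, a silent subunit (adjusted p = 0.44). The median difference was -0.01 over the members, against 0.02 over all genes.

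Set against wild type directly, no member was called with the knockout label in either state in the main edgeR fit (1 term per group). In sham ganglia 6 members had an unadjusted p under 0.05, 8.0% against 8.67% of all genes. DESeq2 called 0 members, against 0.856% of all genes higher and 0.344% lower. By limma-voom 2 were higher and 16 lower, against 8.93% and 7.38% of all genes. The main edgeR fit called 0.108% of all genes higher and 0.027% lower. With the genes detected per library in the model, edgeR called 0 members in sham ganglia, against 0.632% of all genes higher and 0.405% lower. Every labelled sham library lay above every wild-type sham library in 3 members and below in 6, against 6.65% and 5.24% of all genes. In injured ganglia 11 members had an unadjusted p under 0.05, 14.7% against 13.2% of all genes. DESeq2 called 0 higher and 2 lower, against 2.41% and 1.65% of all genes, limma-voom 1 higher and 4 lower, against 6.49% and 4.85%, and edgeR called 1.39% of all genes higher and 0.81% lower. With the genes detected per library in the model, edgeR called 1 member higher and 9 lower in injured ganglia, against 4.63% and 2.78% of all genes. The injured groups were apart in 6 members with the labelled libraries higher and in 14 with them lower, against 16% and 14.3% of all genes. The median log2 fold change was -0.21 over the members in sham, against -0.04 over all genes, and -0.18 in injured ganglia, against -0.01. Kcnj10 had 50.4, 52.2 and 52.2 CPM in injured labelled libraries, against 54.9, 91.8 and 83.7 CPM in injured wild-type libraries (log2 -0.57 ± 0.15, edgeR adjusted p = 0.072). Kcnk2, the stretch-sensitive leak channel TREK-1, whose exons share 12.2% of their length with another gene, had a log2 value of -0.91 ± 0.28 in the same comparison (adjusted p = 0.137). In sham ganglia Kcnn4 had 0.62 ± 0.17 (adjusted p = 0.191) and Kcnk18 -1.06 ± 0.36 (adjusted p = 0.348). The knockout comparison in injured ganglia shares the injured wild-type libraries with the wild-type injury comparison and with that of RU521.

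RU521 in injured wild-type ganglia went with higher levels of 20 of the 75 members and a lower level of 1, Kcnj13, against untreated injured wild-type ganglia (edgeR with Benjamini-Hochberg adjustment). Over all genes tested, 5.1% were called higher and 4.48% lower. The log2 fold change was positive for 55 members and negative for 20, with a median of 0.62, against -0.03 over all genes. Every RU521 library lay above every untreated library in 27 members and below in 4, against 16.1% and 16.9% of all genes. The higher calls held 11 of 24 Kv alpha genes (median log2 fold change 1.0), 5 of 13 auxiliary genes and 1 of 8 silent Kv genes. They also held 2 of 8 genes of the calcium- or sodium-activated group, 1 of 12 K2P genes and none of 10 Kir genes (edgeR, Kir median -0.24). The count of higher calls fell to 3 without the untreated injured library of replicate 2 and was 26 without the RU521 library of replicate 2. Shares over all genes are not given for these fits, so the counts cannot be read as particular to this family. Kcnj13 was lost on leaving out any single library of either group. With the genes detected per library in the model 7 members were higher, against 3.52% of all genes. Of the 15 pan-neuronal genes 5 were higher with RU521, and with libraries scaled to them 6 members were higher and 1 lower, against 0.988% and 5.98% of all genes.

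Kcnd3 had 87.3, 32.6 and 42.9 CPM in RU521 libraries, against 15, 11.2 and 11.8 CPM in untreated injured libraries (log2 2.10 ± 0.30, edgeR adjusted p = 0.0014). Kcnh7 had 84.5, 49.8 and 57.7 CPM in RU521 libraries, against 30.9, 23.6 and 28.1 CPM in untreated injured libraries (log2 1.22 ± 0.23, edgeR adjusted p = 0.0056). In both, all 3 RU521 libraries exceeded all untreated ones, and the RU521 library of replicate 1 was the highest. Kcnb2 was higher by 1.53 ± 0.30 on the log2 scale. Kcnma1, the BK pore, had 54.3, 21.8 and 35.6 CPM in RU521 libraries, against 18.9, 14 and 16.5 CPM in untreated injured libraries (log2 1.18 ± 0.26, edgeR adjusted p = 0.0114), and Kcnip2 was higher by 1.25 ± 0.27. Kcnc1 had 18.2, 6.1 and 9.99 CPM in RU521 libraries, against 3.41, 5.0 and 4.82 CPM in untreated injured libraries (log2 1.37 ± 0.32, edgeR adjusted p = 0.0158). Kcna2 had 198, 99.97 and 118 CPM in RU521 libraries, against 78.6, 81.2 and 87 CPM in untreated injured libraries (log2 0.76 ± 0.20, edgeR adjusted p = 0.026). The RU521 libraries of Kcnma1, Kcnc1 and Kcna2 were uneven, with replicate 1 highest and replicate 2 lowest. Without the RU521 library of replicate 2, the log2 fold change was 2.36 for Kcnd3, 1.77 for Kcnb2, 1.67 for Kcnc1, 1.48 for Kcnip2, 1.45 for Kcnma1, 1.36 for Kcnh7 and 0.94 for Kcna2, all called. With the genes detected per library in the model Kcnd3 (1.66), Kcnb2 (1.12), Kcnma1 (1.06), Kcnip2 (0.84) and Kcnh7 (0.82) kept their calls, and Kcnc1 (0.98, edgeR adjusted p = 0.0561) and Kcna2 (0.54, adjusted p = 0.0832) did not.

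Not all members that injury lowered were called higher with RU521. Kcns1 had 17.4, 8.3 and 12.6 CPM in RU521 libraries, against 8.65, 6.6 and 8.43 CPM in untreated injured libraries (log2 0.70 ± 0.32, edgeR adjusted p = 0.183), with overlapping groups. The log2 fold change was 0.35 ± 0.18 for Kcns3 (adjusted p = 0.247), 0.56 ± 0.26 for Kcnip1 (adjusted p = 0.196) and 0.01 ± 0.21 for Kcnk1, where injury in wild type had given -1.08 for Kcns3, -1.56 for Kcnip1 and -0.76 for Kcnk1. Both comparisons use the same untreated injured libraries, so they are not independent. Kcnj13, an inward rectifier sharing 49.1% of its exon length with Gigyf2 and therefore uncertain, had a log2 fold change of -1.81 ± 0.54 (edgeR, adjusted p = 0.0464).

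Set against wild-type sham ganglia, which the injury comparison uses too, RU521-treated injured ganglia had 0 members higher and 1 lower, Kcns3, by edgeR. At an unadjusted p under 0.05 there were 12 members, 16.0% against 15.1% of all genes. DESeq2 called 2 higher and 3 lower, against 3.92% and 2.15% of all genes, limma-voom 5 higher and 19 lower, against 13.1% and 11.8%, and edgeR called 1.85% of all genes higher and 0.535% lower. All RU521 libraries were above all sham libraries in 5 members and below in 2, against 6.8% and 5.56% of all genes. Kcns3 had 45.4, 37.3 and 37.8 CPM in RU521 libraries, against 85.8, 49.9 and 63.8 CPM in sham wild-type libraries (log2 -0.73 ± 0.18, edgeR adjusted p = 0.0493). The call is close to the threshold. Leaving out single libraries gave from 0 to 7 lower members, in fits whose shares over all genes are not given here. Kcnk16 had a log2 value of 2.55 ± 0.67 (adjusted p = 0.0593) and Kcnip1 of -0.99 ± 0.26 (adjusted p = 0.0592). The median over the members was -0.13, against -0.02 over all genes, and a p above the threshold does not show that levels equalled those of sham.

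The summed level of the 75 members was low in the libraries where that of 15 pan-neuronal genes was low. Members summed to 1294 ± 56 CPM in injured libraries labelled Ptpn2 KO, 2322 ± 318 CPM in sham libraries with that label, 2544 ± 651 CPM with RU521, 1529 ± 124 CPM in injured wild type and 2752 ± 670 CPM in sham wild type (SD, n = 3 each). The pan-neuronal sum was 6189 ± 33.2 CPM in injured and 7573 ± 1085 CPM in sham libraries labelled Ptpn2 KO, 8159 ± 1810 CPM with RU521, 5962 ± 27 CPM in injured and 9240 ± 2261 CPM in sham wild type. Per 1000 CPM of pan-neuronal genes, members summed to 209 ± 8.66 CPM in injured and 307 ± 18 CPM in sham libraries labelled Ptpn2 KO, to 310 ± 13.4 CPM with RU521, and to 256 ± 20.3 CPM in injured and 298 ± 5.09 CPM in sham wild type. On this ratio the injured groups without RU521 were below their sham groups with no overlap, and the sham library of replicate 2 no longer stood apart. The pan-neuronal genes include Gap43, which was higher after injury in wild type. Without Gap43 the ratio was 230 ± 5.64 CPM in injured and 314 ± 18.2 CPM in sham libraries labelled Ptpn2 KO. In wild type it was then 275 ± 16.6 CPM in injured and 305 ± 5.63 CPM in sham libraries, again with no overlap in either pair.

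**Figure D3:**
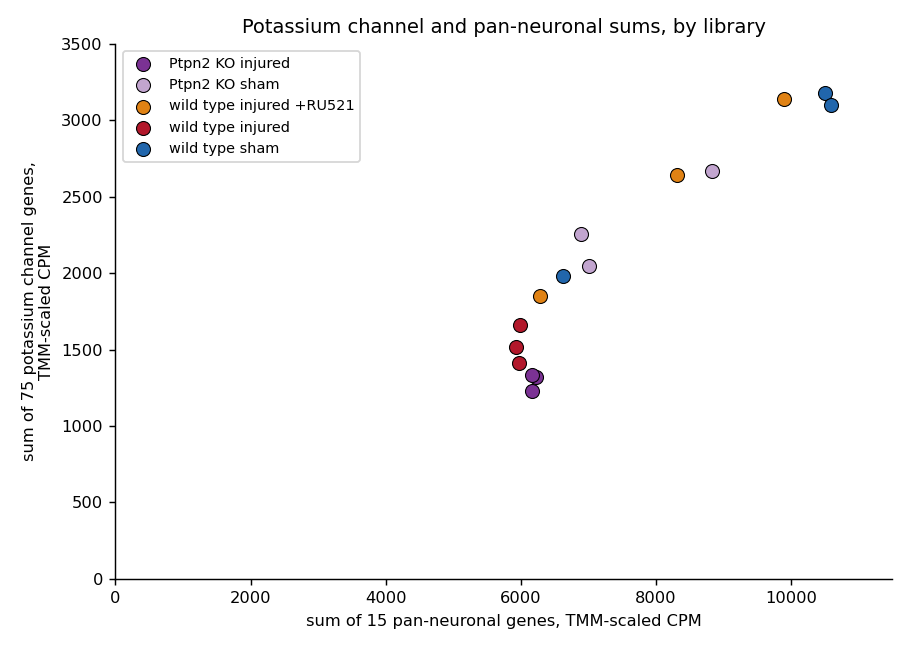
Summed TMM-scaled CPM of the 75 potassium channel genes (vertical axis) against that of 15 pan-neuronal genes (horizontal axis), 1 point per ganglion library, coloured by group. Injured libraries with neither RU521 nor the knockout label lie near 5962 CPM on the horizontal axis, and the injured libraries labelled Ptpn2 KO have the lowest member sums.

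Of the pan-neuronal genes, 1 was higher and 4 lower after injury with the knockout label (median log2 fold change -0.36), 5 were higher and none lower with RU521 (edgeR; median 0.54), and 1, Gap43, was higher and 7 lower after injury in wild type (median -0.73). When libraries were scaled to the pan-neuronal genes, an alternative chosen after seeing the data, the median of all genes moved to 0.27 for injury with the knockout label, -0.42 for RU521 and 0.56 for injury in wild type. Injury with the knockout label then lowered 13 members and raised 2, against 1.39% and 4.84% of all genes. RU521 went with 6 higher and 1 lower, against 0.988% and 5.98%, and injury in wild type lowered 9 and raised 3, against 0.896% and 22.5%. The member median was -0.52 for injury with the knockout label, 0.17 for RU521 and -0.11 for injury in wild type. The 9 lower in wild type were all called under TMM scaling too, and included Kcnh7, Kcnc1, Kcnip1, Kcnip3, Kcnd3, Kcnb2 and Kcnd1. The 6 higher with RU521 included Kcnd3, Kcnh7, Kcnb2, Kcnip2 and Kcnd1. Kcnc1 in wild-type injury then had a log2 fold change of -1.62 (edgeR, adjusted p = 0.00382) and Kcnh7 of -0.97 (adjusted p = 0.00343). Kcna2 at -0.39 (adjusted p = 0.12) and Kcns1 at -0.56 (adjusted p = 0.101) kept their sign but were not called.

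**Figure D4:**
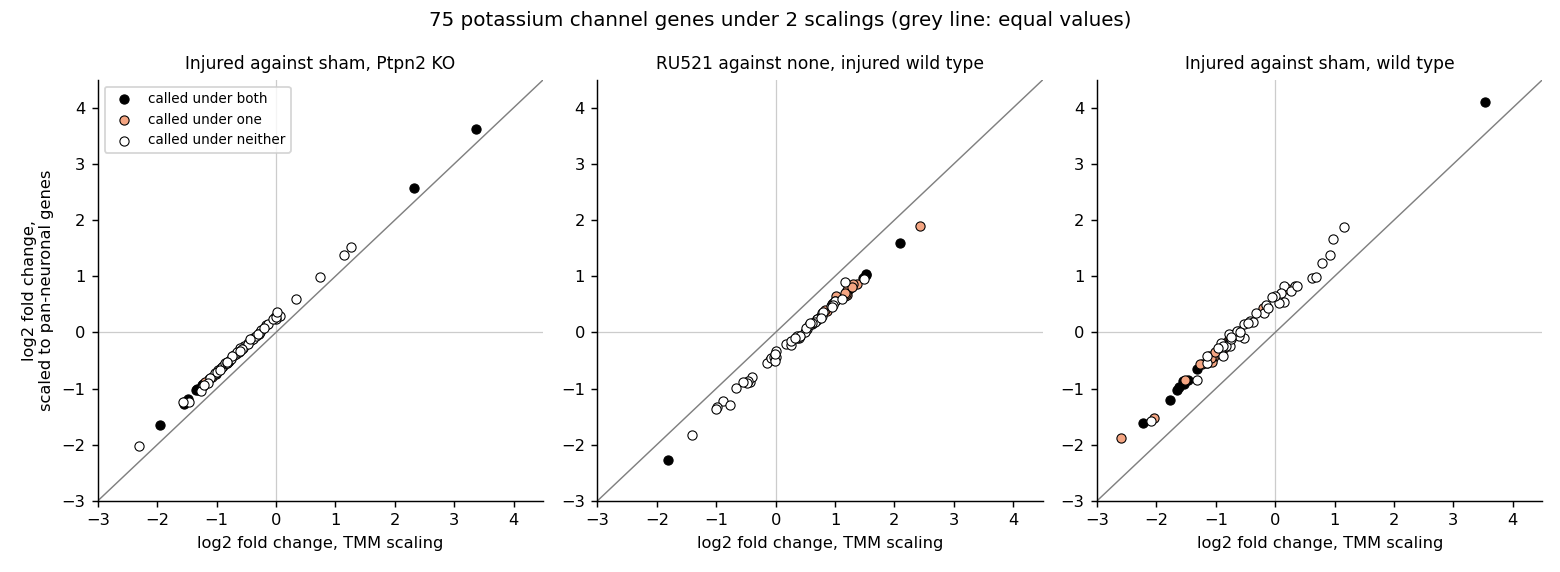
log2 fold change of each of the 75 potassium channel genes under TMM scaling (horizontal axis) and under scaling to 15 pan-neuronal genes (vertical axis) for injury with the Ptpn2 KO label, RU521 in injured wild type and injury in wild type. The grey line marks equal values; points lie above it for injury and below it for RU521, and black points (called under both scalings) include Kcnk16 in both injury panels.

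Markers of other cells moved as well, and their part in the results was not tested. All 14 macrophage markers were detected in all 15 libraries. Their sum ran from 3349 to 3969 CPM in injured and from 787 to 1094 CPM in sham libraries labelled Ptpn2 KO, from 1127 to 3353 CPM with RU521, from 2841 to 2967 CPM in injured wild type and from 386 to 1206 CPM in sham wild type. After injury 12 of 14 were higher with the knockout label and 13 of 14 in wild type. With RU521 3 were lower. The sum of 10 myelinating Schwann cell markers ran from 22220 to 24060 CPM in injured wild type and from 8314 to 16440 CPM in the other groups together, and 10 of 10 were lower with RU521. Of 10 pericyte and smooth muscle markers, the cells Kcnmb1 is best known from, none was called after injury with the knockout label (edgeR), 2 were lower with RU521 and 1 was higher after injury in wild type. Of 9 brown and white fat markers tested, 7 were lower after injury with the knockout label (median log2 fold change -2.94) and 1 in wild type, and 4 were higher for the knockout label in sham (median 2.76). The sum of all 10 ran from 20.9 to 56.7 CPM in injured and from 178.8 to 302.5 CPM in sham libraries labelled Ptpn2 KO, from 11.9 to 20.5 CPM with RU521, from 18.9 to 40.4 CPM in injured wild type and from 12.95 to 79.5 CPM in sham wild type, with up to 3 of 10 at 0 in a library. Satellite glia markers summed to between 7917 and 10130 CPM in injured and between 11410 and 12640 CPM in sham libraries labelled Ptpn2 KO. Their sum ran from 8985 to 10810 CPM with RU521, from 8742 to 10750 CPM in injured and from 10180 to 11010 CPM in sham wild type. Of these 10 markers 2 were lower after injury with the knockout label and 1 was lower with RU521. After injury in wild type 3 were higher and 1 lower. Of 12 large myelinated sensory neuron markers, 7 were lower and 1 higher after injury with the knockout label. In wild type 8 were lower and 1 higher, and with RU521 3 were higher and 1 lower. Of the non-peptidergic nociceptor markers 5 of 9 were lower with the knockout label and 4 of 9 in wild type, and 7 of 9 were higher with RU521. Of the 7 peptidergic markers, 2 were lower and 1 higher after injury with the knockout label, and 3 lower and 1 higher in wild type. With RU521 3 of 7 were higher and none was lower.

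Genes that work with these channels but do not carry Kcn symbols were followed as lists. Of 17 partner genes tested (Kv4, Kv2, BK and KATP partners and the proteins that cluster Kv1 at axons), 5 were lower after injury with the knockout label (median log2 fold change -0.77), 3 were higher with RU521 (median 0.59) and 10 were lower after injury in wild type (median -0.95). Lgi3, a secreted ligand of the Kv1 complex, changed by -1.41 ± 0.32 with the knockout label and -1.84 ± 0.32 in wild type on the log2 scale. Cntnap2, which tethers Kv1 channels beside the node, changed by -0.90 ± 0.22 with the knockout label and -1.24 ± 0.22 in wild type. The Kv4 partner Dpp10 changed by -1.39 ± 0.32 after injury with the knockout label, and was higher by 1.45 ± 0.32 with RU521. Of the 4 HCN genes, which carry the depolarising pacemaker current, none was called after injury with the knockout label (edgeR), 1 was higher with RU521 and 2 were lower after injury in wild type, among them Hcn4 with a log2 fold change of -1.54. Of 9 regulators reported for silencing of channel genes, 2 were higher with RU521 and 2 lower after injury in wild type. Rcor1, a corepressor that works with REST, had log2 fold changes of 0.64 with RU521 and -0.80 after injury in wild type, in comparisons that share the untreated injured libraries. Rest itself had a log2 fold change of 0.63 after injury in wild type (edgeR, adjusted p = 0.165).

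In picked retinal ganglion cells 58 of the 75 members had 3 or more counts in at least 1 of the 12 libraries, 19 of them in every library, and 14 members were at 0 counts in all. By mean TMM-scaled CPM over the 12 libraries, a scale without gene length, Kcnip1 was highest at 136.0 CPM, with a lowest value of 19.6, a median of 95.9 and a highest of 391 CPM. Kcnc2, a Kv3 subunit, averaged 83.4 CPM, Kcnma1 77.2, Kcnab2 72.5 and Kcnc1 60.4 CPM. These 5 had values in all 12 libraries, with ranges that overlapped throughout. Genes can be compared only per length, and with the exon lengths of the ganglion table the highest per kilobase were Kcnk1 at 22.8, Kcnip1 at 21.6, Kcnip4 at 13.3, Kcnc2 at 11.7 and Kcnab2 at 10.4 CPM per kilobase. Kcna2 averaged 53.5 CPM and ran from 5.62 to 109 CPM, while Kcns1 was at 0 in all 12. Kcnip2, Kcnn4, Kcnv1, Kcnj16 and Kcns1 had at least 10 CPM on average in ganglia and under 3 counts in every retinal library. Retinal ganglion cell markers summed to between 3788 and 12110 CPM, with up to 2 of 12 at 0 in a library. The same markers summed to between 7047 and 14460 CPM in ganglia, so this sum is not particular to retinal ganglion cells. In the retinal libraries Müller glia markers summed to between 706 and 4932 CPM and rod markers to between 41.7 and 614 CPM. In 1 library of the group labelled Ptpn2 KO with PBS the macrophage markers summed to 4476 CPM. The part of other cells in the results was not tested.

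None of the 45 members tested in retinal cells was called in any of 4 comparisons by edgeR, against 0.0148% of all genes higher and 0.00741% lower for the knockout label with PBS and 0% in each direction in the other comparisons. At an unadjusted p under 0.05 there were 4 members for IFNγ with the knockout label, 8.89% against 6.52% of all genes, and 2 for IFNγ in wild type, 4.44% against 4.02%. For the knockout label there was 1 with IFNγ, 2.22% against 4.95% of all genes, and there were 4 with PBS, 8.89% against 9.5%. DESeq2 called 2 members higher for IFNγ with the knockout label, against 2.1% of all genes, 1 higher for IFNγ in wild type, against 0.916%, and 1 lower for the knockout label with PBS, against 2.63%. For the knockout label with IFNγ DESeq2 called 0, against 1.18% of all genes higher and 0.751% lower. In each comparison limma-voom called 0 members, against at most 0.0371% of all genes in a direction. Groups did not overlap in 3 members higher and 1 lower for IFNγ with the knockout label, against 6.15% and 3.81% of all genes, and in 2 higher and 1 lower for IFNγ in wild type, against 5.02% and 4.17%. For the knockout label they did not overlap in 2 members higher and 3 lower with IFNγ, against 6.13% and 6.16% of all genes, and in 6 higher and 1 lower with PBS, against 5.12% and 7.1%. Kcnab2 had 128, 209.5 and 86.8 CPM in labelled cells with IFNγ, against 19.98, 28.6 and 17 CPM in labelled cells with PBS (log2 2.69 ± 0.62, edgeR adjusted p = 0.693). These groups did not overlap, but the difference did not pass adjustment. Kcnc1 had 68.9, 113 and 104 CPM in labelled cells with PBS, against 24.3, 55.8 and 39.9 CPM in wild-type cells with PBS (log2 1.25 ± 0.59, edgeR adjusted p = 0.517). The biological coefficient of variation was 1.27 over retinal libraries and 0.262 over ganglion libraries. In data simulated for IFNγ in wild-type retinal cells, 2.5% of genes changed by 2 on the log2 scale were called. The lack of calls therefore does not show unchanged levels.

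**Figure D5:**
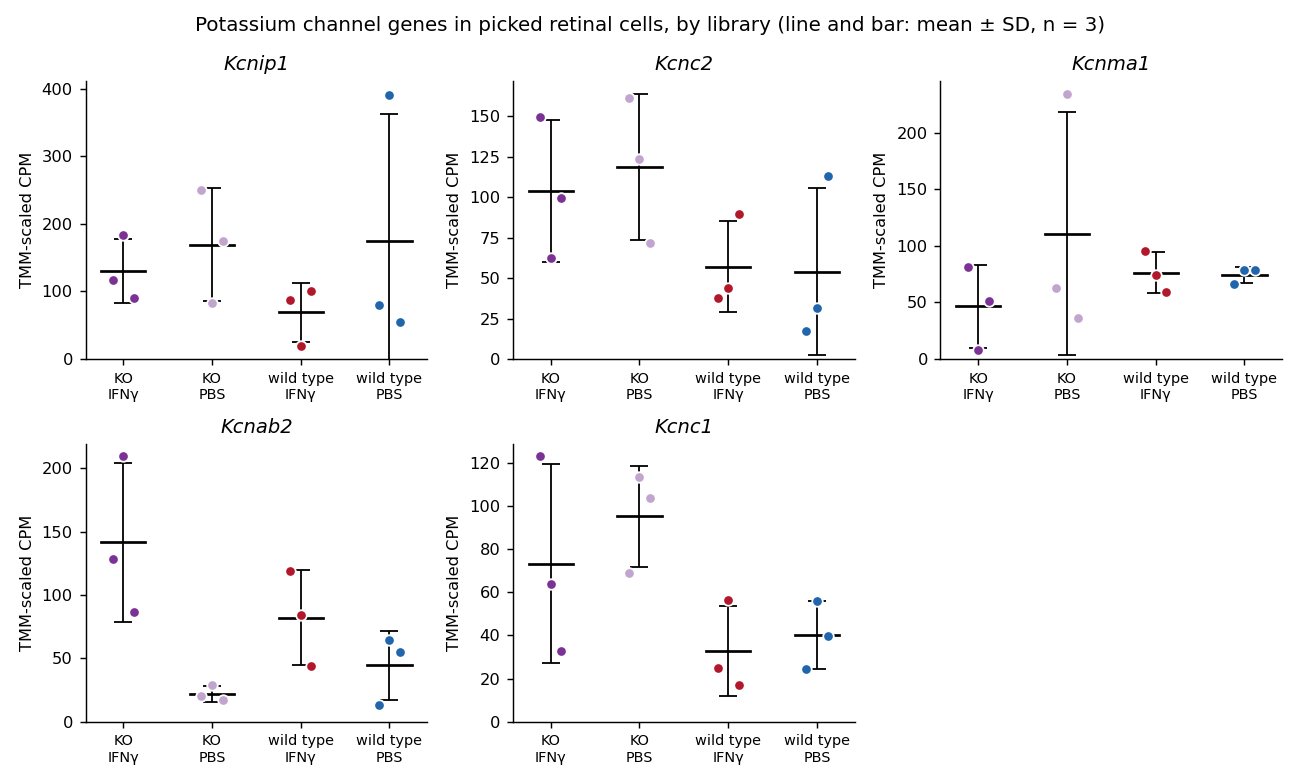
TMM-scaled CPM of 5 potassium channel genes with high mean levels in picked retinal cells (Kcnip1, Kcnc2, Kcnma1, Kcnab2 and Kcnc1), by library, in groups labelled Ptpn2 KO with IFNγ and with PBS and wild type with IFNγ and with PBS. Points are libraries, the line and bar are the mean ± SD (n = 3), and bars are not drawn below 0; only Kcnab2 with the knockout label and Kcnc1 with PBS show groups apart.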

How the data were processed

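Raw counts per gene symbol, as deposited by the authors, were used for 15 ganglion and 12 retinal libraries. Per the submitters' processing notes, Trim Galore trimmed the reads and STAR aligned them to GRCm38 (mm10), with no versions named. Per the file headers, ganglion reads were counted with featureCounts 2.0.1 on Ensembl release 101 over exons, paired, primary, mapping quality 10 or more and without strand, so counts of overlapping genes are uncertain; the exon length in base pairs (deposited in the same table) gave levels per kilobase. The command names 20 alignment files for 15 columns. The program that made the retinal counts was not named in the sources used here, and 1 unnamed line with 50% of that file's total was left out. Per the labels' protocols, ganglion RNA was amplified with SMART-Seq v4 and picked retinal cells with Smart-seq2.

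Counts were scaled by TMM and fitted with edgeR 4.0.16 (R 4.3.3) by robust quasi-likelihood with 1 term per group, separately for ganglia (18517 genes) and retina (13487), after filterByExpr (minimum count 10, total 15), with Benjamini-Hochberg adjustment over all genes tested and a threshold of 0.05. DESeq2 1.42.0, limma 3.58.1 (voom), other scalings and filters, a replicate block and leaving out libraries were alternatives. The fit was checked on simulated data. For injury in wild-type ganglia it called 36% of genes changed by 1 on the log2 scale and 89.5% of those changed by 2. For IFNγ in wild-type retinal cells it called 0% and 2.5%. Unchanged genes made up 7.69% and 6.28% of the calls in ganglia, and 16.7% in retina at a change of 2. Genes named are Kcnc1, Kcns1 and Kcna2, the members called with the smallest p (12 in each injury comparison and direction, 6 elsewhere, or 2 where none was called), the leading member per subfamily, the 6 highest retinal members and up to 4 genes per list; a few others were named after their values were seen. Some genes that this rule names are not reported here. The members and lists were chosen with earlier results of these data known. Floors of 3 counts cover counting error only.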

Additional observations from a re-analysis of the deposited data

How the results depend on the processing

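Of 3995 recomputed values of named genes, 3296 kept their direction and side of the threshold, 307 changed sign without being called in either fit, 195 newly passed the threshold, 194 no longer passed it and 3 reversed with a call in 1 of the fits. The 3 reversals came with the wild-type sham libraries of replicates 1 and 3 left out, an alternative chosen with earlier results known: Kcnip4 after injury in wild type (0.0442), and Kcnip1 (0.96) and Kcnk1 (0.65) for the knockout label in sham. That setting rests on a lone wild-type sham library, so its counts of called members are not given. For injury with the knockout label, lower counts were 34 without a filter, 31 with DESeq2, 36 with voom, 34 with only the groups compared and 29 with a replicate block. There voom gave 4 higher and a member cutoff of 2 CPM gave 1 higher. Of all genes, DESeq2 called 7.08% lower, and voom 11% lower and 12.8% higher. For injury in wild type, lower counts were 49 with voom, 17 with only the groups compared, 7 with detected genes per library as a covariate and 9 under pan-neuronal scaling. Higher counts were 2 without a filter, 6 with voom and 3 under pan-neuronal scaling. Of all genes, voom called 23.6% lower and 26.4% higher, the covariate fit 1.7% lower, and pan-neuronal scaling 0.896% lower and 22.5% higher. For the interaction, the unfiltered fit gave 1 lower and voom 2 higher and 1 lower. For the knockout label in sham, voom gave 2 higher and 16 lower. For the knockout label in injured ganglia, lower counts were 2 without a filter, with DESeq2 and with the replicate block, 4 with voom, 6 with only the groups compared and 9 with the covariate, and voom and the covariate gave 1 higher. For RU521 in injured wild type, higher counts were 40 with voom, 7 with the covariate and 6 under pan-neuronal scaling. Lower counts were 2 without a filter and with only the groups compared, 8 with voom and 0 with the covariate. Of all genes, voom called 16.4% higher and 17% lower, the covariate fit 3.52% and 4.02%, and pan-neuronal scaling 0.988% higher. For RU521 against sham, DESeq2 size factors, only the groups compared and pan-neuronal scaling gave 0 lower. The unfiltered fit gave 2 higher and 6 lower, DESeq2 2 and 3, voom 5 and 19, and the replicate block 1 and 2. The covariate gave 4 and 3, against 3.9% and 2.41% of all genes. In retinal cells DESeq2 gave 1 higher for IFNγ in wild type, 2 higher for IFNγ and 1 lower with PBS for the knockout label. The causes were not tested. Where no share over all genes is given for a fit, as on leaving out 1 library, a changed member count cannot be read as particular to this family. Leaving out 1 library gave from 8 to 24 lower and from 2 to 2 higher members for injury with the knockout label, from 10 to 41 and from 1 to 5 for injury in wild type, from 3 to 26 higher and from 0 to 0 lower for RU521 in injured wild type, from 0 to 1 higher and from 0 to 7 lower for RU521 against sham, and from 0 to 1 lower for the knockout label in sham and in injured ganglia. Deviations of same-numbered ganglion libraries correlated at -0.149 to 0.307, over 0.1 in 6 of 30 pairs. Those of different-numbered ones correlated at -0.331 to 0.249, over 0.1 in 6 of 60 pairs. The 6 same-numbered pairs joined replicates 1, or replicates 2, of wild-type sham, labelled sham and RU521 libraries (0.162 to 0.307). What these libraries share was not tested, and the main fit used no pairing. Same-numbered retinal libraries correlated at -0.022 to 0.063. Members under about 5 CPM and all retinal comparisons are limited by depth and spread.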
